A study of Mus musculus with 4 samples.

Results

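The genes described here fell between embryonic day E16.5 and E18.5 in the urogenital sinus (UGS) of both wild type and Tbx18Gfp/Gfp male mouse embryos. A gene was a member if its E16.5 value was at least 1.5 times its E18.5 value in wild type and also in Tbx18Gfp/Gfp UGS, with at least 2 FPKM in both E16.5 libraries. FPKM is the number of reads scaled to transcript length and to the mapped reads of the library, so levels of different genes can be set side by side. Symbols beginning with Mir, Snor, Rnu, Rn, Gm or LOC were left out. Of the 25819 rows measured, 11950 passed the FPKM floor and the symbol rule, and 60 of these were members. Because the stage ratios chose the genes, those ratios are given as a description without a test, and "fell" means past 1.5-fold.

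RNA was taken from the whole UGS, the endodermal tube and surrounding mesenchyme from which the prostate grows. Tbx18Gfp is a knock-in null allele of the T-box factor gene *Tbx18*, Tbx18Gfp/Gfp embryos carry 2 mutant copies, and wild type littermates on the same B6C3-F1 hybrid background were the controls. There were 4 libraries, 1 for each genotype at each stage, and each held RNA pooled from 3 male embryos. With 1 pooled library per group there was no replicate check, and no test, replicate error or p-value is given. *Tbx18* itself had 3.47 FPKM in E16.5 wild type, 2.50 FPKM in E16.5 Tbx18Gfp/Gfp, 3.16 FPKM in E18.5 wild type and 2.93 FPKM in E18.5 Tbx18Gfp/Gfp UGS, which does not separate intact from targeted transcript. Epithelial genes that mark this tissue were present, such as *Krt5* between 59.8 and 104 FPKM and *Foxa1* between 14.4 and 29.99 FPKM.

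Over these days the UGS epithelium buds into the mesenchyme under androgen control, and the bladder neck and urethra acquire their own epithelia. Keratins are the intermediate filament proteins of epithelial cells, and different keratins mark basal, simple and squamous layers. In fetal blood, nucleated red cells of the yolk sac give way to enucleated cells made in the liver. In bulk tissue, fewer cells of a type and less RNA per cell cannot be told apart.

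The fall was common in wild type and rare in the mutant. In wild type UGS 4301 of the 11950 genes fell, 36.0% of those tested. In Tbx18Gfp/Gfp UGS 97 genes fell, 0.812% of those tested. The 60 members were 0.502% of the genes tested, and made up 61.9% of the 97 genes that fell in the mutant. Rises past 1.5-fold were seen in 4.15% of the genes tested in wild type, in 1.72% in the mutant and in 0.301% in both. The median log2 ratio of E16.5 to E18.5 FPKM over the members was 1.06 in wild type and 0.75 in Tbx18Gfp/Gfp, against 0.36 and 0.06 over all genes tested. In 46 members the fall was larger in wild type and in 14 it was larger in the mutant. Thus the mutant ratio was the tighter limit for most members, while the wild type ratio left out 37 of the 97 genes that fell in the mutant.

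**Figure D1:**
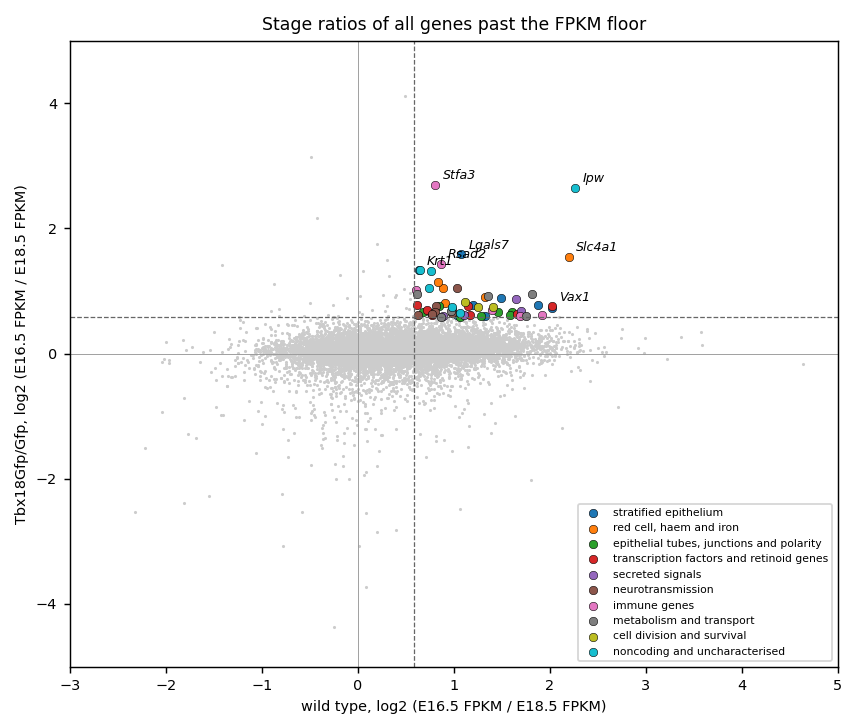
Log2 ratio of E16.5 to E18.5 FPKM in wild type (x axis) and Tbx18Gfp/Gfp UGS (y axis) for the 11950 genes past the floor (grey) and the 60 members (coloured by role), with dashed lines at 1.5-fold. The grey cloud is wide along the wild type axis and narrow along the mutant axis, and the members lie in its sparse upper right corner.

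The E18.5 wild type library stood apart from the others. Its estimated depth was 0.454 of that of E16.5 wild type, where the mutant libraries had 0.871 at E16.5 and 0.820 at E18.5, and its ratio to E16.5 wild type followed the GC content of the transcript. Genes were split into 10 bins by GC content. In the poorest bin the median wild type log2 ratio was -0.03, and in the richest it was 0.98, where 74.8% of the genes fell. In the mutant the same medians went only from 0.01 to 0.14. The members were rich in GC, with a median of 54.8% against 50.4% over all genes tested. Of the 59 members with an annotated transcript, 45 lay above the median of all genes. This richness was not particular to the members, since the 4301 genes that fell in wild type had a median of 54.9%. The 37 genes that fell in the mutant alone had 50.3%. When each ratio was corrected by subtracting its trend with length and GC, 20 of the 60 members still fell in both genotypes, and 11.3% of all genes tested fell in wild type and 0.569% in the mutant. With the E18.5 wild type library left out and both E16.5 libraries set against the E18.5 mutant library, 35 members still passed 1.5-fold. Every member with a higher E16.5 level in wild type than in the mutant passes this recount through the rule itself, so it is no separate support.

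**Figure D2:**
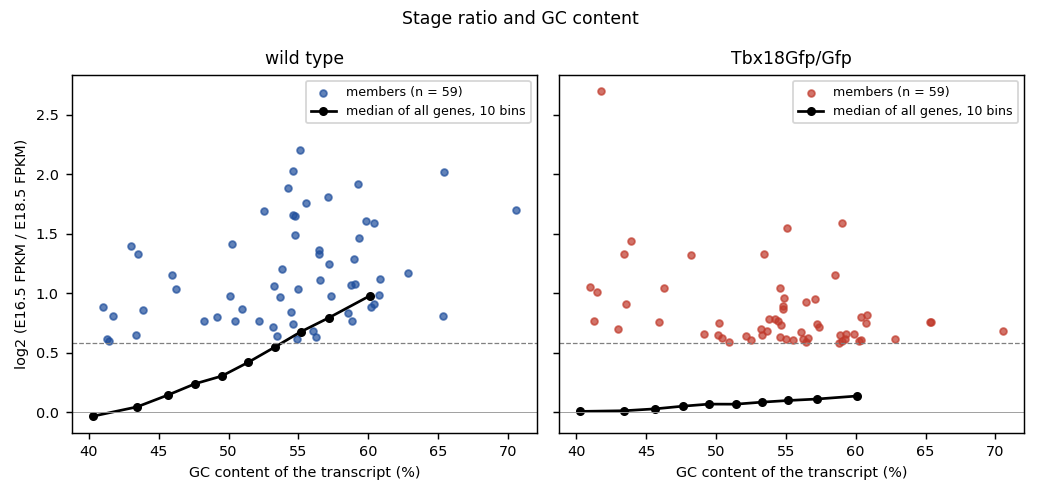
Log2 ratio of E16.5 to E18.5 FPKM against the GC content of the transcript in percent, in wild type (left) and Tbx18Gfp/Gfp UGS (right). Points are the 59 members with an annotated transcript, the black line is the median of all genes past the floor in 10 bins of GC content, and the dashed line is 1.5-fold. The line climbs to 0.98 in wild type and stays at or below 0.14 in the mutant.

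Across the 4 libraries the members were mostly low. Their median was 4.27 FPKM in E16.5 wild type and 5.13 FPKM in E16.5 Tbx18Gfp/Gfp, and 1.97 and 2.87 FPKM in the E18.5 libraries of these genotypes. All genes tested had medians of 11.6 FPKM in both E16.5 libraries. Only 15 members reached 10 FPKM in both E16.5 libraries, and 35 were under 5 FPKM in at least 1 of them. In 57 members both E16.5 values lay above both E18.5 values, as they did in 40.2% of all genes tested. *Cdh16*, *Qprt* and *Cxcl15* were the exceptions. The rule asks for a fall within each genotype, so this separation follows in large part from it. A stricter separation, with the lower E16.5 value at least 1.5 times the higher E18.5 value, was met by 30 members, which is 0.251% of the genes tested, since any gene that meets it is also a member. A fall past 2-fold in both genotypes was found in 4 members, *Ipw*, *Slc4a1*, *Lgals7* and *Tac1*.

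**Figure D3:**
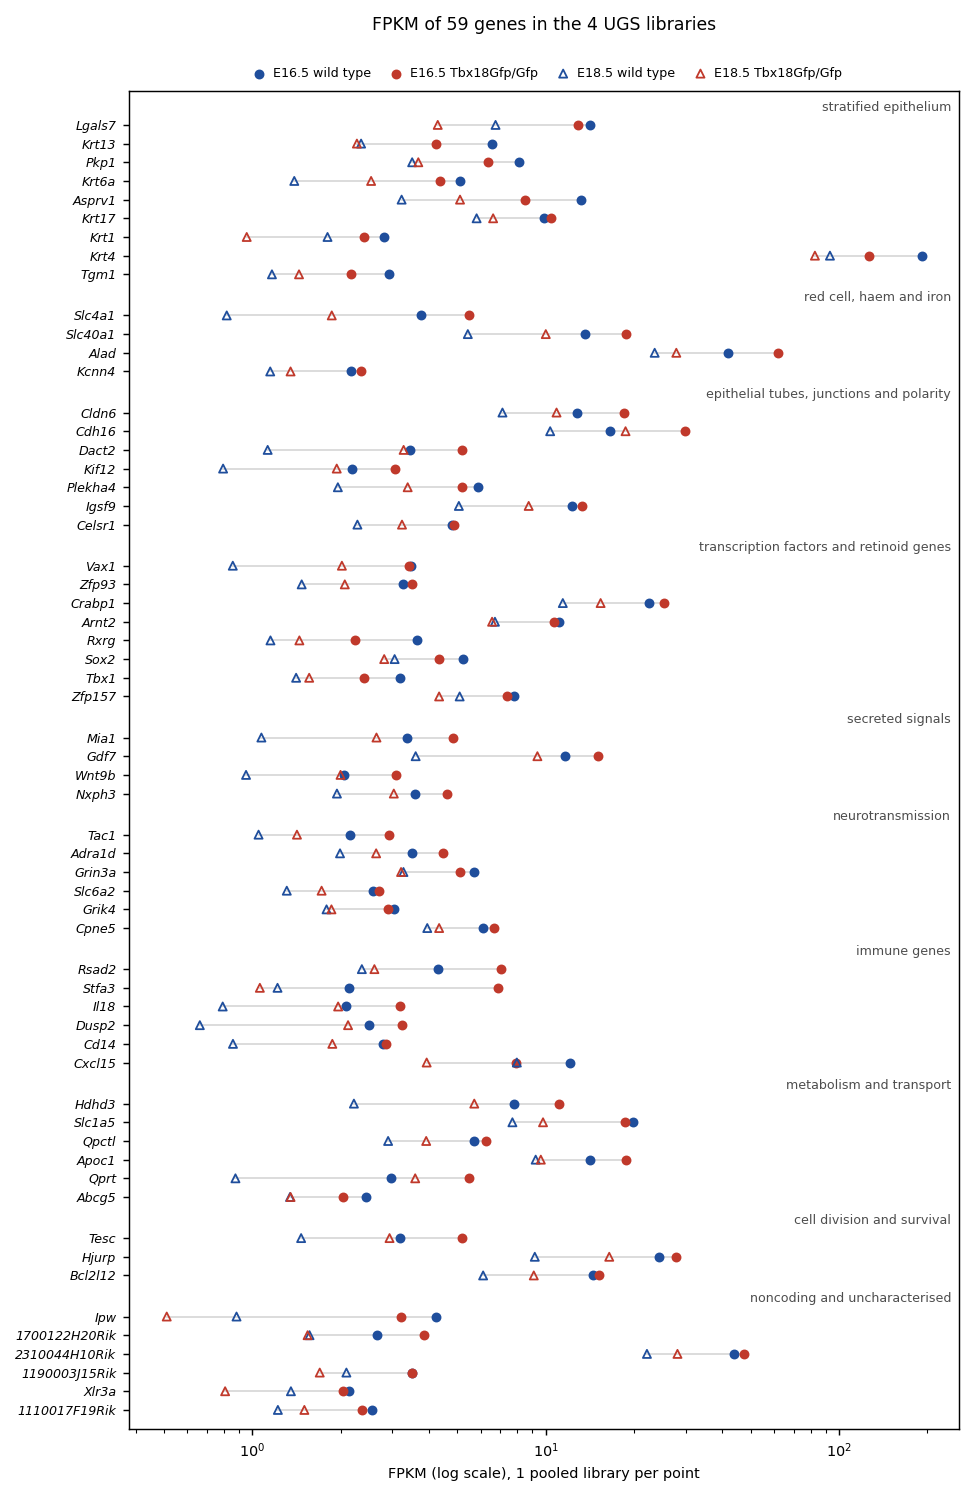
FPKM of 59 of the 60 members in the 4 pooled libraries on a log scale, grouped by role, with circles for E16.5, triangles for E18.5, blue for wild type and red for Tbx18Gfp/Gfp. Circles lie to the right of triangles in every gene but *Cdh16*, *Qprt* and *Cxcl15*, where the stages overlap.

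Genes of stratified epithelium were the largest group that could be named, with 9 members. The 4 of them that matched a promoter entry in RefSeq (GRCm38.p6) are shown, as the 250 bases before the first listed transcript start, 5′ to 3′ on the gene's strand. Capitals mark TGANTCA, the AP-1 motif, and CACCC, a motif of Krüppel-like factors, on either strand.

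*Krt13*, chr11:100121567-100121816, minus strand: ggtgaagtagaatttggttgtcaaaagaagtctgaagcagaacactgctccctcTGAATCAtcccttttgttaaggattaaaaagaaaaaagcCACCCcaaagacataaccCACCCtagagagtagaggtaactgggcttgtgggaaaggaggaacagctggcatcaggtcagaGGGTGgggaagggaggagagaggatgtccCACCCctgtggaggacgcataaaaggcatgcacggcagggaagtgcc
*Lgals7*, chr7:28864136-28864385, plus strand: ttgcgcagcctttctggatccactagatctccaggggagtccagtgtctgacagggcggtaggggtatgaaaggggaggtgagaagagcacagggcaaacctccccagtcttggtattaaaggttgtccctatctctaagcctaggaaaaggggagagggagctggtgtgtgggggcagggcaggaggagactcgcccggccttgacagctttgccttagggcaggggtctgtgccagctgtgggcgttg
*Asprv1*, chr6:86627924-86628173, plus strand: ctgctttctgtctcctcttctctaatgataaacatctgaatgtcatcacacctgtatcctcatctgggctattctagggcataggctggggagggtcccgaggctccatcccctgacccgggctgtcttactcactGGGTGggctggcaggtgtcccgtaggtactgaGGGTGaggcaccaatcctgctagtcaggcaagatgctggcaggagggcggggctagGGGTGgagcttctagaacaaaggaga
*Tgm1*, chr14:55713493-55713742, minus strand: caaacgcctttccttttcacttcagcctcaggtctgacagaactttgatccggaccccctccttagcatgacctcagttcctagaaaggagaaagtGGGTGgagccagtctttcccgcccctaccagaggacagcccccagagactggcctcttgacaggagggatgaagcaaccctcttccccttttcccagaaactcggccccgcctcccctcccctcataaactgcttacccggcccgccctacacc

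The *Krt13* window holds 1 AP-1 match, 196 bases before the start, and 4 CACCC matches. *Asprv1* holds 3 CACCC matches, *Tgm1* holds 1 and *Lgals7* holds neither motif. Over the same window of 27025 genes, TGANTCA was found in 6.87% and CACCC in 51.3%, and over the 42 members with an entry in 3 and 24. The promoters are given for their sequence, and nothing about the factors is drawn from these matches.

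*Krt4*, a keratin of non-keratinising squamous epithelium, had by far the highest level of any member. It had 191 FPKM in E16.5 wild type and 126 FPKM in E16.5 Tbx18Gfp/Gfp, and 93.1 and 82.7 FPKM at E18.5, falls of 2.05-fold and 1.53-fold. Its partner keratin *Krt13* went from 6.58 to 2.35 FPKM in wild type and from 4.23 to 2.27 FPKM in the mutant. Both keratins were lower in the mutant at E16.5. Their E18.5 log2 ratios of mutant to wild type were -0.17 for *Krt4* and -0.05 for *Krt13*, or -0.80 and -0.72 with the length and GC trend subtracted. *Krt6a*, a keratin of stressed and hyperproliferative epithelium, went from 5.12 to 1.39 FPKM in wild type (3.69-fold) and from 4.37 to 2.54 FPKM in the mutant (1.72-fold). Its near-identical neighbour *Krt6b* was under the floor at 0.893 and 0.797 FPKM, so that reads shared between them could move either value. *Krt17*, of the same stress-related kind, went from 9.88 to 5.81 FPKM and from 10.4 to 6.62 FPKM. *Krt1*, a keratin of suprabasal epidermis, went from 2.81 to 1.80 FPKM in wild type and from 2.41 to 0.957 FPKM in the mutant, the only keratin member with the larger fall in the mutant.

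Keratins as a family did not all follow this course. Of 51 keratin symbols measured, 16 passed the floor, and *Krt1*, *Krt4*, *Krt6a*, *Krt13* and *Krt17* were the 5 members. In wild type 9 of the 16 fell and in the mutant 6, where 36.0% and 0.812% of all genes tested did, and the 5 members stand against 0.502%. Symbol families were named only if they held at least 5 members, so this excess follows from the choice and is no support. The family's median log2 ratio was 0.63 in wild type and 0.34 in the mutant, against the 0.36 and 0.06 of all genes tested. The basal keratin genes *Krt14* and *Krt15* had wild type log2 ratios of 1.33 and 1.47 and mutant ratios of 0.33 and 0.36. Among keratins of simple epithelium, mutant log2 ratios were -0.38 for *Krt8*, -0.35 for *Krt7*, 0.07 for *Krt19* and -0.67 for *Krt18*, of which *Krt18* rose past 1.5-fold. *Krt5* had -0.01 there, from 70.7 to 71.4 FPKM. *Krt10*, the partner of *Krt1*, had -0.20 in wild type and 0.40 in the mutant, and *Krt78* had 0.13 and 0.23, so not every keratin of squamous layers fell.

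**Figure D4:**
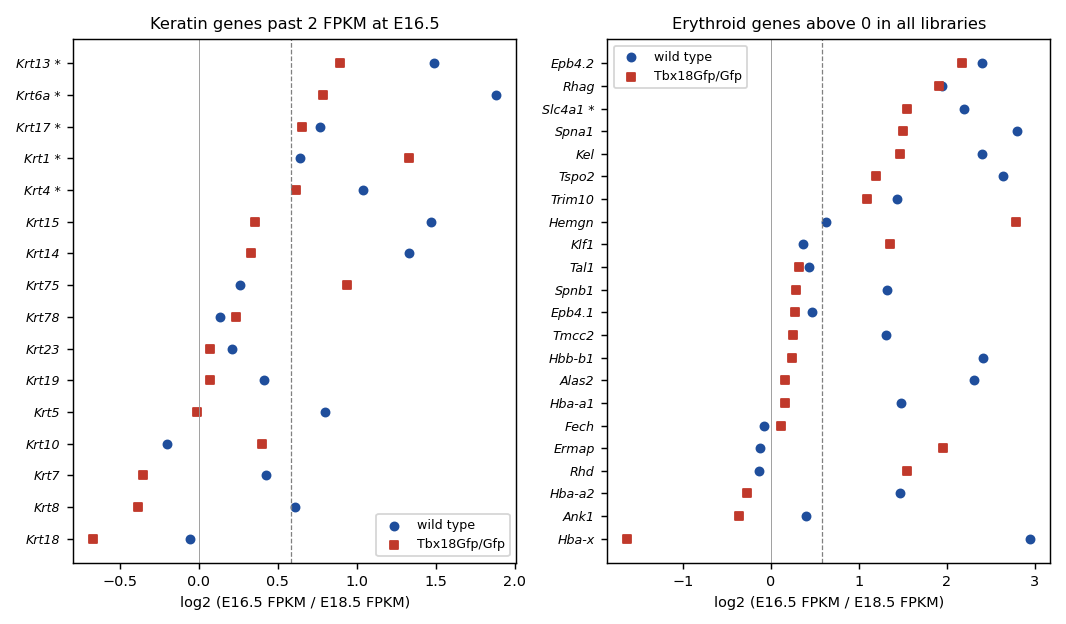
Log2 ratio of E16.5 to E18.5 FPKM in wild type (blue circles) and Tbx18Gfp/Gfp UGS (red squares) for the 16 keratin genes past the floor (left) and 22 of the 23 erythroid genes above 0 in all 4 libraries (right), ordered by the smaller of the 2 ratios, with members starred and a dashed line at 1.5-fold. The 5 keratin members stand at the top of the left panel, and 8 erythroid genes in the right panel have both ratios past the line.

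The other squamous members encode parts of the cell envelope and its junctions. *Lgals7*, galectin 7 of stratified epithelium, went from 14.2 to 6.75 FPKM in wild type and from 12.9 to 4.28 FPKM in the mutant. Its fall was 2.11-fold in wild type and 3.01-fold in the mutant. *Asprv1*, an aspartic protease that processes filaggrin, had 13.2 FPKM in E16.5 wild type and 3.23 FPKM in E18.5 wild type (4.08-fold), with 8.49 and 5.10 FPKM in the mutant (1.66-fold). *Pkp1*, a plaque protein of desmosomes, went from 8.08 to 3.51 FPKM and from 6.33 to 3.68 FPKM. *Tgm1*, the transglutaminase that crosslinks the cornified envelope, went from 2.93 to 1.17 FPKM and from 2.18 to 1.44 FPKM. While 55.0% of all genes tested were higher in the mutant at E16.5, 8 of the 9 genes of this group were lower. Their median log2 ratio of mutant to wild type there was -0.35. This was not particular to the group. The basal keratin genes *Krt5*, *Krt14* and *Krt15*, which were not members, had -0.56, -0.38 and -0.58 at E16.5, while *Krt8* and *Krt18* had 0.002 and 0.03. The urogenital epithelium list summed to 1671 FPKM in E16.5 wild type and 1343 FPKM in E16.5 mutant UGS. At E18.5 the median was 0.07 as deposited, -0.22 centred on the median of all genes tested and -0.70 with the length and GC trend subtracted, so that a difference between the stages depended on the scale. Of the group, *Krt13*, *Pkp1*, *Krt6a* and *Asprv1* still passed with the length and GC trend subtracted.

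Terminal markers of skin went in several directions. An epidermis list of 39 genes, written after the members had been seen, had 15 genes past the floor. Of these 5 were members, against 0.502% of all genes tested. *Sprr1a* and *Ivl*, both envelope precursors, rose past 1.5-fold in both genotypes, where 0.301% of all genes tested did. *Sprr1a* went from 199.3 to 822 FPKM in wild type and from 141 to 268 FPKM in the mutant. *Ivl* went from 9.63 to 25.9 FPKM and from 8.82 to 17.5 FPKM. The late epidermal genes *Flg* and *Flg2* stayed at or below 0.04 FPKM in every library, and *Lor* had 2.54 to 5.35 FPKM. The summed level of the list was 468 and 333 FPKM at E16.5, while its E18.5 sums were 996 and 450 FPKM in wild type and mutant. The sum thus moved against the squamous members, mostly through *Sprr1a*.

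Red cell genes formed a second group, with 5 members of red cell, haem or iron function. *Slc4a1*, band 3 of the red cell membrane, had 3.76 FPKM in E16.5 wild type, 5.47 FPKM in E16.5 Tbx18Gfp/Gfp, 0.818 FPKM in E18.5 wild type and 1.86 FPKM in E18.5 Tbx18Gfp/Gfp UGS. Its falls of 4.60-fold and 2.93-fold were second to *Ipw* by the smaller of the pair. *Alad*, the second enzyme of haem synthesis, went from 41.9 to 23.5 FPKM and from 61.9 to 27.9 FPKM. *Slc40a1*, the iron exporter ferroportin, went from 13.6 to 5.43 FPKM and from 18.8 to 10.01 FPKM. *Kcnn4*, the calcium-gated potassium channel of red cells and other cells, went from 2.16 to 1.15 FPKM and from 2.35 to 1.35 FPKM. All 5 were higher in the mutant at both stages, as were 55.0% of all genes tested at E16.5 and 71.7% at E18.5.

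Of 28 genes on the erythroid list 9 passed the floor. In wild type 7 of these fell and in the mutant 2, both members, against 36.0% and 0.812% of all genes tested. *Alas2*, *Fech*, *Epb4.1* and *Tmcc2*, all past the floor, stayed within 1.5-fold in the mutant. Above 0 in all 4 libraries were 23 of the 28. With no floor 9 of these 23 fell in both genotypes, against 2.25% of the 16892 rows counted in the same way. Any decrease in both was seen in 17 of the 23, against 47.4% of those rows. Among the 9 that fell were *Slc4a1*, *Epb4.2*, *Spna1*, *Rhag*, *Kel*, *Tspo2*, *Trim10* and *Hemgn*. *Spna1*, the red cell spectrin alpha chain, had wild type and mutant log2 ratios of 2.80 and 1.497, and *Epb4.2*, a membrane skeleton protein, had 2.40 and 2.17. Their E18.5 wild type values rest on an estimated 10 and 6 reads, and those of *Rhag*, *Kel*, *Tspo2* and *Hemgn* on 2, 3, 4 and 5 reads. Other red cell membrane genes did not fall in both genotypes, such as *Ank1* with 0.40 and -0.37, *Spnb1* with 1.32 and 0.29, *Rhd* with -0.14 and 1.55 and *Ermap* with -0.12 and 1.95. Globins fell in wild type and stayed within 1.5-fold in the mutant for *Hba-a1* and *Hbb-b1*. *Hba-a1*, an adult alpha globin, had 14169 FPKM at E16.5 and 12700 FPKM at E18.5 in Tbx18Gfp/Gfp UGS, but 8812 and 3159 FPKM in wild type. *Hbb-b1*, an adult beta globin, had 5337 and 4509 FPKM in the mutant and 3348 and 632 FPKM in wild type. The summed level of the list, nearly all of it globin, was 18006, 28957, 5919 and 28566 FPKM in E16.5 wild type, E16.5 mutant, E18.5 wild type and E18.5 mutant. The part that blood content had in these genes was not tested.

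The remaining members were sorted by role. Among genes of epithelial tubes, junctions and polarity, *Cdh16*, the kidney-specific cadherin of nephric duct and tubule epithelium, had 16.6 FPKM in E16.5 wild type, 29.8 FPKM in E16.5 Tbx18Gfp/Gfp, 10.4 FPKM in E18.5 wild type and 18.7 FPKM in E18.5 Tbx18Gfp/Gfp UGS. It fell by nearly equal folds, 1.60 and 1.59, and was 1.80-fold and 1.81-fold higher in the mutant at the 2 stages. *Cldn6*, a claudin of embryonic epithelia, went from 12.8 to 7.12 FPKM in wild type and from 18.49 to 10.9 FPKM in the mutant. *Kif12*, a kinesin of kidney epithelium, went from 2.19 to 0.795 FPKM and from 3.07 to 1.94 FPKM. *Celsr1*, a cadherin of planar cell polarity, passed the rule by the smallest margin, from 4.78 to 2.28 FPKM and from 4.86 to 3.24 FPKM. *Dact2*, *Igsf9* and *Plekha4* fell by 2.44-fold to 3.05-fold in wild type and by 1.52-fold to 1.58-fold in the mutant. All 7 were higher in the mutant at E18.5, as were 71.7% of all genes tested. None passed once the length and GC trend was subtracted, and their median GC content was 59.0%.

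Of the kidney and duct list 19 genes passed the floor, with *Cdh16* and *Wnt9b* as members, against 0.502% of all genes tested. *Wnt9b*, a Wnt ligand of the nephric duct and its derivatives, went from 2.05 to 0.952 FPKM in wild type and from 3.08 to 1.998 FPKM in the mutant. *Pax8*, a paired box factor of the same duct, fell in the mutant from 4.99 to 3.28 FPKM, but had 3.12 and 4.60 FPKM in wild type. *Wt1*, a zinc finger factor of the kidney and gonad, had a wild type log2 ratio of -0.58, that is, a higher value at E18.5. Duct genes therefore did not share 1 course in wild type. The other secreted signals were *Gdf7*, a BMP-family ligand, with 11.7, 15.1, 3.60 and 9.37 FPKM in E16.5 wild type, E16.5 mutant, E18.5 wild type and E18.5 mutant, *Mia1* with 3.37, 4.83, 1.07 and 2.65 FPKM, and *Nxph3*, a neurexin ligand, with 3.59, 4.60, 1.94 and 3.04 FPKM. Each of the 4 signals was highest in E16.5 mutant and lowest in E18.5 wild type UGS, and none passed without the E18.5 wild type library.

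Transcription factors and retinoid genes contributed 8 members. *Sox2*, a pluripotency and epithelial progenitor factor, went from 5.21 to 3.05 FPKM in wild type and from 4.34 to 2.81 FPKM in the mutant. *Tbx1*, a T-box factor, went from 3.18 to 1.41 FPKM in wild type and from 2.40 to 1.56 FPKM in the mutant. *Vax1*, a homeobox factor of the ventral forebrain and eye, went from 3.49 to 0.858 FPKM (4.06-fold) and from 3.42 to 2.02 FPKM (1.69-fold). *Arnt2*, a partner of bHLH-PAS factors, had falls of like size, from 11.1 to 6.71 FPKM and from 10.6 to 6.56 FPKM. *Crabp1*, the cellular retinoic acid binding protein, was the highest of the group, falling from 22.6 to 11.4 FPKM in wild type and from 25.2 to 15.4 FPKM in the mutant. *Rxrg*, a retinoid X receptor, went from 3.64 to 1.15 FPKM and from 2.24 to 1.45 FPKM. The zinc finger genes *Zfp93* and *Zfp157* fell by 2.22-fold and 1.53-fold in wild type and by 1.69-fold and 1.71-fold in the mutant.

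Genes of neurotransmission fell by fairly similar folds in the 2 genotypes. *Tac1*, the precursor of substance P, went from 2.15 to 1.05 FPKM in wild type and from 2.93 to 1.42 FPKM in the mutant, folds of 2.05 and 2.07. *Slc6a2*, the noradrenaline transporter, went from 2.58 to 1.31 FPKM and from 2.70 to 1.72 FPKM. *Adra1d*, an alpha-1 adrenergic receptor, went from 3.49 to 1.99 FPKM and from 4.48 to 2.64 FPKM. The glutamate receptor subunit genes *Grin3a* and *Grik4* and the copine gene *Cpne5* fell by 1.55-fold to 1.74-fold in wild type and by 1.53-fold to 1.58-fold in the mutant. None of the 40 genes past the floor on a list of neurons and axon growth was a member, where 0.502% of all genes tested were. In wild type 14 of the 40 fell, near the 36.0% of all genes tested. The medians of that list were 0.29 in wild type and 0.06 in the mutant, close to those of all genes tested.

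Immune genes included the member with the largest fall in the mutant. *Stfa3*, a stefin inhibitor of cathepsins, had 2.13 FPKM in E16.5 wild type and 6.90 FPKM in E16.5 Tbx18Gfp/Gfp, and 1.22 and 1.06 FPKM at E18.5. Its E18.5 wild type value stands for about 7 reads, and the exact 95% interval of the wild type log2 ratio ran from -0.37 to 2.30, for counting error only. *Rsad2*, the interferon-induced antiviral protein viperin, went from 4.29 to 2.36 FPKM and from 7.06 to 2.61 FPKM. *Il18*, a cytokine, *Cd14*, a coreceptor for bacterial lipopolysaccharide, and *Dusp2*, a phosphatase of MAP kinases, fell by 2.63-fold, 3.24-fold and 3.78-fold in wild type and by 1.63-fold, 1.52-fold and 1.53-fold in the mutant. *Cxcl15*, the chemokine lungkine, went from 12.1 to 7.97 FPKM in wild type and from 7.92 to 3.93 FPKM in the mutant, so that E16.5 mutant and E18.5 wild type UGS were level. On the leukocyte list *Cd14* was the 1 member among 21 genes past the floor. Of these 6 fell in wild type and 4 in the mutant, against 36.0% and 0.812% of all genes tested.

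Metabolic and transport genes made up 6 members. *Slc1a5*, the glutamine transporter ASCT2, went from 19.8 to 7.70 FPKM in wild type and from 18.6 to 9.79 FPKM in the mutant, and was among the 15 members that passed under all 4 rescalings tried. *Apoc1*, an apolipoprotein, went from 14.1 to 9.24 FPKM and from 18.7 to 9.62 FPKM. *Qprt*, an enzyme of NAD synthesis, went from 2.96 to 0.876 FPKM in wild type and from 5.46 to 3.59 FPKM in the mutant, with the E18.5 mutant level above that of E16.5 wild type. *Hdhd3*, which lies 7 kb from *Alad* on chromosome 4, went from 7.79 to 2.22 FPKM and from 11.1 to 5.71 FPKM. *Qpctl*, a glutaminyl cyclase of the Golgi, and *Abcg5*, a sterol exporter, fell by 1.96-fold and 1.82-fold in wild type and by 1.60-fold and 1.51-fold in the mutant.

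Dividing cells were followed by their own lists. *Hjurp*, the chaperone that loads the centromeric histone CENP-A, went from 24.4 to 9.18 FPKM in wild type and from 27.7 to 16.47 FPKM in the mutant, and passed under all 4 rescalings. *Bcl2l12* went from 14.5 to 6.12 FPKM and from 15.2 to 9.11 FPKM, and *Tesc*, a calcium-binding protein, from 3.18 to 1.47 FPKM and from 5.18 to 2.93 FPKM. None of 60 mitosis genes and none of 57 DNA replication genes past the floor was a member, where 0.502% of all genes tested were. Mitosis genes had a median log2 ratio of 0.02 in wild type and 0.14 in the mutant, with 8 that fell and 7 that rose in wild type. Of all genes tested 36.0% fell and 4.15% rose in wild type. DNA replication genes had medians of 0.39 and 0.15, and 44 of the 57 had lower values at E18.5 in both genotypes (as had 51.7% of all genes tested), by less than 1.5-fold in the mutant in every case. Of the 60 mitosis genes 29 had lower values at E18.5 in both genotypes, near the 51.7% of all genes tested. At a share of 0.502%, lists of 60 and 57 genes need hold no member, so nothing about *Hjurp* is drawn from this.

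The largest fall common to both genotypes was that of *Ipw*, a noncoding transcript of the imprinted Prader-Willi region. It had 4.24 FPKM in E16.5 wild type and 3.21 FPKM in E16.5 Tbx18Gfp/Gfp, and 0.883 and 0.511 FPKM at E18.5, falls of 4.801-fold and 6.28-fold. Other transcripts of that region did not fall past 1.5-fold in the mutant, but some did in wild type. *Snurf* had 27.6, 23.2, 25.5 and 23.96 FPKM in E16.5 wild type, E16.5 mutant, E18.5 wild type and E18.5 mutant. *Ndn* had 87.9, 81.0, 49.5 and 93.3 FPKM in the same order, and *Snrpn* had log2 ratios of 0.33 and -0.50. *Magel2* and *Mkrn3* had wild type log2 ratios of 1.36 and 0.83 and mutant ratios of 0.23 and -0.07. In the table *Ipw* lies on chromosome 7 from 66874528 to 66934248 and overlaps *Snord116*, which was listed at 0 in all 4 libraries. *Xlr3a*, an X-linked gene with near-identical copies, went from 2.13 to 1.35 FPKM and from 2.03 to 0.808 FPKM, while its copy *Xlr3b* had log2 ratios of 0.30 and 1.503. Of 4 members listed under Rik symbols, 2310044H10Rik (*Emc10*) was the highest, going from 43.7 to 22.1 FPKM in wild type and from 47.4 to 28.1 FPKM in the mutant. The rest, 1700122H20Rik, 1190003J15Rik (*Urah*) and 1110017F19Rik (*Smim6*), had at most 3.86 FPKM.

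The lists for smooth muscle, skeletal muscle, cartilage and bone, collagen and fibrillar matrix, Schwann cells, endothelium, mesenchymal patterning factors, signalling, fetal growth, histones, immediate early genes, ribosomal proteins and oxidative phosphorylation held no member. Of all genes tested 0.502% were members. These lists had from 10 to 91 genes past the floor, too few for the absence to be read as a result. In 26 of 41 skeletal muscle, 48 of 85 oxidative phosphorylation and 45 of 91 ribosomal protein genes the level fell in wild type, against 36.0% of all genes tested. None of these fell in the mutant, where 0.812% of all genes tested did. Smooth muscle genes went the other way, with 18 of 23 past 1.5-fold higher at E18.5 in the mutant and 5 in wild type. Of all genes tested 1.72% rose in the mutant and 4.15% in wild type. On the urogenital epithelium list *Pkp1* and *Sox2* were the members among 37 genes past the floor, against 0.502% of all genes tested. *Upk2*, a uroplakin of urothelium, and *Pparg*, a nuclear receptor, rose in both genotypes, where 0.301% of all genes tested did.

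The genotype ratios within a stage are formed from the same 4 FPKM values that chose the members, so they are given as a description and nothing is read from their counts. At E16.5, 8 members were at least 1.5-fold higher in Tbx18Gfp/Gfp (0.469% of all genes tested were) and 5 at least 1.5-fold lower (1.32%). At E18.5, 22 were higher (32.9%) and 5 lower (5.01%). Any excess in the mutant was seen in 37 members at E16.5 and 46 at E18.5, against 55.0% and 71.7% of all genes tested. With sums made equal, with centring on the median ratio or with the length and GC trend subtracted, 2 members in place of 8 were past 1.5-fold higher at E16.5. Among members with at least 5 FPKM in the higher library, *Stfa3* (log2 ratio 1.69), *Qprt* (0.88), *Cdh16* (0.84), *Rsad2* (0.72) and *Tesc* (0.70) were highest in the mutant at E16.5. *Krt13* (-0.64), *Asprv1* (-0.63), *Cxcl15* (-0.61), *Krt4* (-0.60) and *Pkp1* (-0.35) were lowest, 4 of them squamous genes. At E18.5 *Gdf7* had a log2 ratio of 1.38, which was 0.06 after the length and GC trend was subtracted, and *Hdhd3* one of 1.36, which became 0.55. *Cxcl15* had -1.02 at E18.5, or -1.18 with the trend subtracted.

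**Figure D5:**
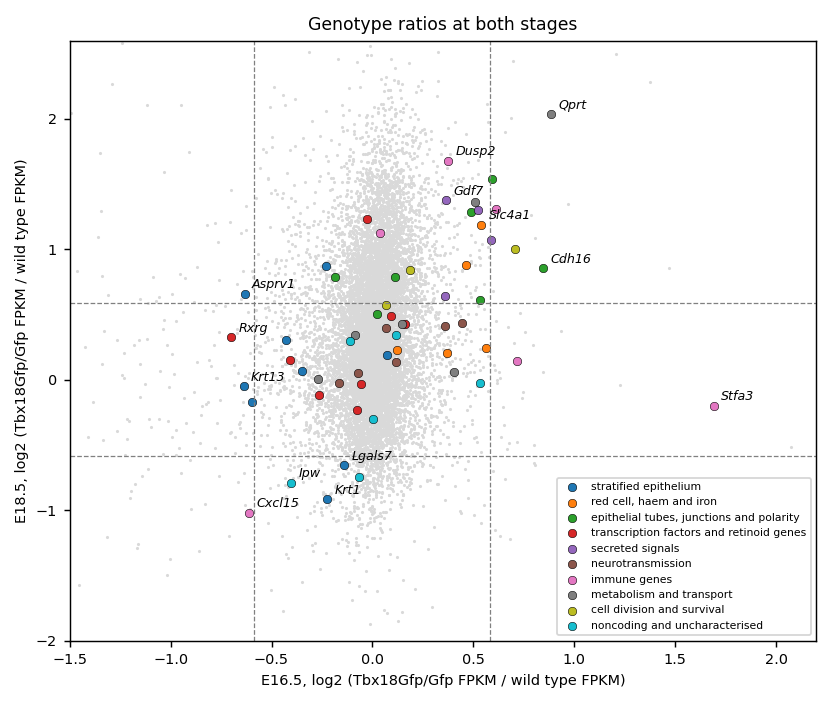
Log2 ratio of Tbx18Gfp/Gfp to wild type FPKM at E16.5 (x axis) and E18.5 (y axis) for all genes past the floor (grey) and the 60 members (coloured by role), with dashed lines at 1.5-fold in each direction and 22 grey points beyond the axes. Squamous genes lie to the left of 0 at E16.5 except *Krt17*, and *Qprt*, *Cdh16* and *Stfa3* lie farthest to the right.

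Values at the edge of the rule differed little. Just inside it were *Celsr1*, *Abcg5* and *Tgm1*, whose smaller fold was at most 1.51. Just outside were *Hbegf* (from 18.1 to 4.22 FPKM in wild type and from 17.8 to 11.9 FPKM in the mutant), *Isl2* (1.49) and *Tctn2* (1.49). Counting error was judged from estimated reads. The exact 95% interval of the log2 ratio lay above 0 in both genotypes for 57 of the 59 members with a transcript length. It lay above 1.5-fold in both for 13. The same values chose the members, so the count above 0 is largely set by the rule. Under 50 estimated reads in at least 1 library were found for 13 members. The loci of 11 members overlap another row, as *Sox2* overlaps *Sox2ot*, and since it is not stated whether strand was used in counting, reads of such pairs cannot be told apart.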

How the data were processed

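RNA from whole UGS of male embryos was sequenced as 4 libraries, each pooled from 3 embryos of 1 genotype and stage. Per the submitters' processing notes and the study's methods, single-end reads of a stranded mRNA kit were trimmed with Trimmomatic 0.30, aligned with TopHat2 2.1.0 at default options and quantified with Cufflinks 2.2.1. The authors deposited FPKM for 25819 rows. The genome build is not given in the sources used here, and positions in the deposited table differ from GRCm38. Stage ratios were taken without a pseudocount or rescaling. All 60 members entered with the values deposited, and 55 rows with repeated symbols were kept. The members and gene lists were chosen with earlier results of these data known, and role groups and the epidermis list after the members were seen. The rule for named genes took the 20 members with at least 5 FPKM at E16.5 and the largest smaller ratio, up to 6 members per list, the 10 highest at E18.5, the 5 highest and lowest by genotype ratio at each stage, the 3 on each side of the threshold and symbol families of at least 5 members. A member the rule would name and a gene of the kidney and duct list are counted but not reported here by name. Other genes named were chosen after their values were seen.

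Mapped reads were estimated from single-exon olfactory receptor genes, where a single read has a fixed FPKM for a given length (length less 199 bases). The commonest value, shared within 0.5% by 12 to 22 genes per library, gave relative depths of 1 and 0.454 for wild type and 0.871 and 0.820 for Tbx18Gfp/Gfp at E16.5 and E18.5. Read numbers are estimates that assume 1 transcript length per gene, and intervals cover counting error only. Length and GC content came from GENCODE M21 transcripts (GRCm38) by symbol or synonym, for 11808 of 11950 genes, and a lowess trend of span 0.3 was subtracted from each ratio as an alternative. The steps were tested on simulated data. Promoters are from RefSeq. Trends were fitted with statsmodels 0.14.6, intervals computed with scipy 1.17.1, and figures drawn with matplotlib 3.10.9, in Python 3.11.15 with pandas 2.3.3 and numpy 2.4.6.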

Additional observations from a re-analysis of the deposited data

Results flagged for a closer look

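*Asprv1*, the filaggrin-processing protease, differed between genotypes in opposite directions at the 2 stages. As a log2 ratio of Tbx18Gfp/Gfp to wild type FPKM, it stood at -0.63 for the E16.5 pair and 0.66 for the E18.5 pair. It was the only member past 1.5-fold in opposite directions. The difference between the stages was not tested, since each rests on 1 library per genotype. Centred on the median gene, the E18.5 ratio was 0.37, and with the length and GC trend subtracted it was -0.01.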

How the results depend on the processing

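Each group has 1 library, so leaving out a replicate was not run. No paired analysis was possible because each group is 1 pooled library and no result comes from a test. The wild type embryos were littermates of the mutants, so the genotypes share litters within a stage. The 60 genes that fell in both genotypes, the 4301 in wild type, the 97 in Tbx18Gfp/Gfp, the 8 and 22 members at least 1.5-fold higher in the mutant at E16.5 and E18.5, and the 7 members on a gene list were recounted under each setting but the last 3, where the count in both genotypes alone was taken, and the reason for each change was not tested. Members were called anew under each setting, so their counts can drop because genes left the set. With library sums made equal, 44 genes fell in both, 2439 in wild type, and 2 and 14 members were higher in the mutant. Centred on the median ratio, 26 fell in both and 2244 in wild type, 2 and 10 were higher, and 2 were on a list. With upper quartiles made equal, 31 and 2426 fell, 4 and 12 were higher, and 4 were on a list. With the length and GC trend subtracted, 20 and 1351 fell, 2 and 5 were higher, and 3 were on a list. With a pseudocount of 1, 25 fell in both and 56 in the mutant, 2 and 8 were higher, and 3 were on a list. With a floor of 1 FPKM, 85 fell in both and 150 in the mutant, 11 and 32 were higher, and 11 were on a list. With a floor of 5 FPKM, 25 fell in both and 34 in the mutant, 1 and 9 were higher, and 2 were on a list. With no floor, 671 fell in both, 6573 in wild type and 1323 in the mutant, 229 and 288 were higher, and 24 were on a list. At 2-fold, 4 fell in both, 1866 in wild type and 24 in the mutant, 0 and 1 were higher, and 1 was on a list. A pseudocount of 0.1 and leaving out repeated symbols moved the count in both to 56 and 60, and keeping all symbols to 76. Chosen after seeing the data, leaving out E18.5 wild type gave 54 genes, with 35 of the 60 among them, and asking for the lower E16.5 value to be 1.5 times the higher E18.5 value gave 30.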

Other observations

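Members were unevenly spread over the chromosomes. On chromosome 7 lay 14 of the 60 members (23.3%), against 7.72% of the 11950 genes tested. The same chromosome held 26 of the 97 genes that fell in Tbx18Gfp/Gfp (26.8%), 9.95% of those that fell in wild type and 8.74% of those that rose in Tbx18Gfp/Gfp. It held 12 of the 37 genes (32.4%) that fell in the mutant alone. Between 20 and 40 megabases on this chromosome, 9 of 198 genes fell in the mutant, 5 of them members. No test was made of this pattern, which was noticed after the values were seen.

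Several members were neighbours. *Hdhd3* and *Alad* lie 7 kb apart on chromosome 4, *Zfp93* and *Kcnn4* 92.5 kb apart on chromosome 7, *Krt1* and *Krt4* 67.7 kb apart on chromosome 15, and *Krt13* and *Krt17* 134.7 kb apart on chromosome 11.

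The 37 genes that fell in the mutant alone were led by *S100a9* and *S100a8*, calcium-binding proteins of neutrophils. *S100a9* had 29.0 FPKM in E16.5 Tbx18Gfp/Gfp UGS and between 1.67 and 3.54 FPKM in the other 3 libraries, and *S100a8* had 31.1 FPKM against 3.54 to 6.39 FPKM. *Stfa1*, a stefin related to the member *Stfa3*, had 13.3 FPKM in that library and 2.95 to 4.22 FPKM in the others.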
